A study of Homo sapiens with 15 samples.

Results

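ATRA, all-trans retinoic acid, was tested in hyperoxia in A549 cells, a cell line from a human lung adenocarcinoma, and the libraries labelled hyperoxia with ATRA were compared here with the libraries labelled hyperoxia without it. The members are 7 of the 15 samples of the series and were assigned by their labels, with earlier results of these data known. With 1e-05 mM ATRA there are 3 libraries (IA02, IA05 and IA11, called replicates 1 to 3 here in the order of their names), with the ethanol vehicle 2 (IA06 and IA12), and with neither ATRA nor vehicle in the label 2 (IA01 and IA04). Per the labels, the cells were wild type, ATRA or vehicle was given for 24 hours, and 95% oxygen followed for 72 hours, after which total RNA was sequenced. Another library titled hyperoxia has a treatment label that names a different procedure, and it was left out. The question was which genes differ with ATRA when both control sets are pooled, 3 libraries against 4, and which of them hold against each control set and without IA01. Nothing in the labels says that the replicates were separate cultures, so the p-values measure only the spread between these libraries, which may be technical.

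Retinoic acid enters the nucleus and binds retinoic acid receptors, which sit on DNA as heterodimers with retinoid X receptors and switch from co-repressors to co-activators once the ligand is bound. Among the classical targets are the genes that remove retinoic acid or its precursors, the CYP26 hydroxylases and the retinaldehyde reductase DHRS3, and the receptor gene RARB itself. A549 cells are widely used as a model of lung epithelium, and retinoids are known in the lung for their part in alveolar growth and epithelial differentiation.

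Depth was between 2642377 (IA05) and 5605072 (IA02) counts on genes per library, and 3 counts, the smallest number taken as detection, corresponded to 0.53 CPM (counts scaled to a common library total after normalization) in IA12 and 1.15 CPM in IA05, which covers counting error only. A pair of libraries stood apart. IA01 had 4910396 counts but only 12657 genes with a count, whereas the other 6 libraries had between 16465 and 19874. Of 1737 genes that averaged 5 to 10 CPM in the other controls, 31.6% had no count in IA01, against 1.32% in IA02, 1.04% in IA05 and 0% in IA11. IA04, IA06 and IA12, which defined these genes, also had 0%, and for them the choice largely fixes this. The first principal component of log2 CPM held 68.3% of the variance and set IA01 at -173.75, and the second held 12.2% and set IA02 at -71.1. IA01 correlated with the others at 0.772 to 0.818 across genes, which are not independent replicates, and the other 6 correlated among themselves at 0.896 to 0.974. The number of calls and many of the results are therefore given with and without IA01, and the part of IA02 is given beside the counts.

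**Figure D1:**
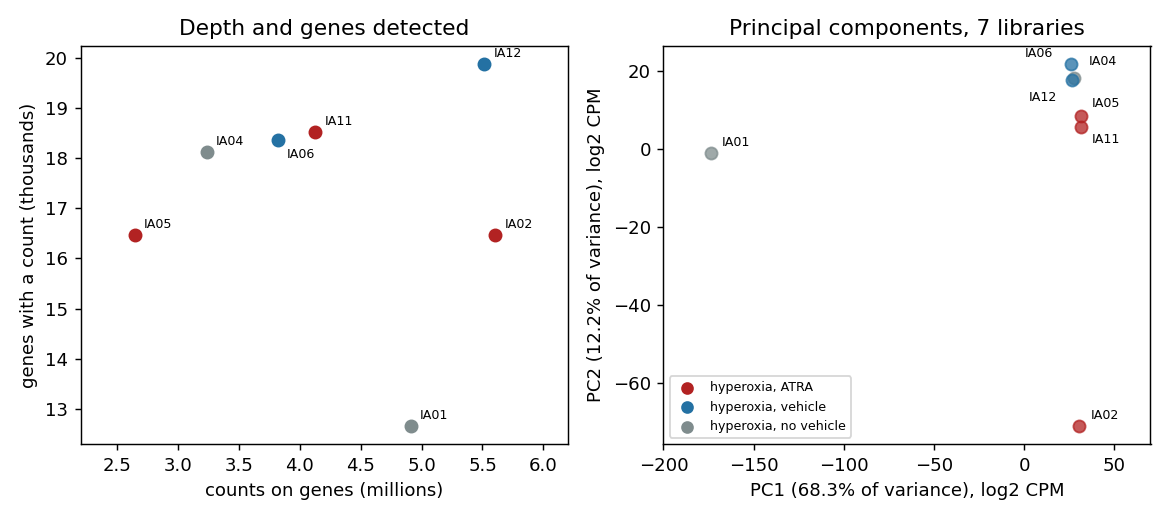
Left, genes with a count against counts on genes for the 7 hyperoxia libraries; right, the first against the second principal component of their log2 CPM, each point 1 library. IA01 lies apart from the other 6 libraries in both plots, and IA02 on the second component.

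Marker genes of several cell types were read beside the label. All 8 epithelial markers had a count in some library, led by KRT7, but the sum, 3318 to 3964.5 CPM in the controls and 5527 to 7053 CPM with ATRA, came almost only from KRT7, KRT8 and KRT18. EPCAM had at most 4 counts in any library, and EPCAM, CLDN4 and CLDN7 had none in IA01. Of 17 alveolar type I and type II markers, 8 had no count in any of the 7 libraries, among them SFTPA1, SFTPA2, SFTPC and NKX2-1, and CAV1 was the most abundant. Immune markers (8 genes, led by CD68, 4 without a count) summed to between 60.6 and 104 CPM, fibroblast markers (8 genes, led by THY1) to at most 9.23 CPM, and no endothelial marker exceeded 2 counts. In bulk RNA, fewer cells with a transcript and less of it per cell cannot be told apart.

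With the 4 controls pooled, edgeR's quasi-likelihood test called 79 of 13814 genes (0.572%) at an adjusted p under 0.05, of which 46 were raised (0.333%) and 33 lowered (0.239%) with ATRA. Before adjustment 1153 genes (8.35%) had a p under 0.05, and the median log2 fold change of all genes tested was 0.02. A gene was said to hold when it was called again without IA01 and had the same sign with an unadjusted p under 0.05 against the vehicle libraries and against the libraries without vehicle. All 79 called genes held (0.572% of those tested). Since the rule sets the same ATRA libraries against parts of the same controls, a gene with so small a p passes it easily, and holding is no independent support. Their absolute log2 fold changes ran from 0.41 to 3.55. The 3 ATRA libraries did not overlap with the 4 controls in 1785 genes (12.9% of those tested), and the 79 are among these, which their choice also largely fixes. A stricter rule, an adjusted p under 0.05 against each control set, kept 14 genes (0.101%), 11 raised and 3 lowered. These were TNFAIP2, TFPI2, CYP24A1, CCN5, PTPRJ, ELF3, CYP26B1, RHCG, DHRS3, KRT7-AS and PFKFB3, which rose, and NAMPT, RSPO3 and AKR1B1, which fell.

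The count depended on single libraries. Without IA01, 413 of 13596 genes (3.04%) were called, 257 raised (1.89%) and 156 lowered (1.15%), and 334 of them were not called with IA01 included. Without IA02 only TNFAIP2 and TFPI2 were called, without IA05 7 genes, without IA06 27, without IA12 26, without IA04 44 and without IA11 45. All 79 genes kept their sign in each of these fits, which is largely fixed, since their ATRA and control libraries do not overlap. Without IA02 their log2 fold changes were 0.726 to 1.11 times those with it, so that most sizes stayed while the calls did not. With IA01 and IA02 both left out, a choice made after seeing the data, 399 genes were called and the 79 were all among them.

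The retinoid machinery held the gene with the largest fold change. CYP26B1, the hydroxylase that clears retinoic acid, had 853, 670.2 and 373 CPM in the ATRA libraries IA02, IA05 and IA11. Its controls had 36.8 and 35.3 CPM with vehicle (IA06 and IA12), and 99.1 and 42.7 CPM without (IA01 and IA04). Each ATRA library was above each control, and IA01 was the highest control. The difference was 11.7-fold, a log2 fold change of 3.55 (standard error 0.39, edgeR adjusted p = 0.00535), and without IA01 it was 4.06 (edgeR adjusted p = 1.77e-08). Against vehicle the log2 fold change was 4.13 and against no vehicle 3.13 (edgeR adjusted p = 0.0058 and 0.0408).

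DHRS3 reduces retinaldehyde back to retinol and so draws on the precursor of retinoic acid. Its level was 234, 189.9 and 183 CPM with ATRA, 50.3 and 60.6 CPM with vehicle, and 85.6 and 69.4 CPM without vehicle, with no overlap between ATRA and control. Its log2 fold change was 1.61 (standard error 0.18, edgeR adjusted p = 0.00535). Of the 14 genes tested on the list for retinoid turnover and binding (19 genes), these 2 were raised with a median of 0.44, and without IA01 4 were raised. All list counts are to be read beside the shares of all genes tested, 0.333% raised and 0.239% lowered, or 1.89% and 1.15% without IA01. The additional ones were STRA6, the membrane receptor for the retinol carrier, and ALDH1A3, which makes retinoic acid. STRA6 had 373, 405 and 320 CPM with ATRA, 84.2 and 115 CPM with vehicle, and 207 and 163 CPM without vehicle. Its log2 fold change was 1.36 with IA01 (edgeR adjusted p = 0.0527) and 1.61 without it (edgeR adjusted p = 2.42e-05). CYP26A1, the other main retinoic acid hydroxylase, had at most 14 counts in any library (edgeR adjusted p = 0.873).

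Retinoic acid receptors are known to bind direct repeats of a 6-base half-site, and promoter windows of RefSeq on GRCh38.p14 (250 bases before to 50 after an annotated start) were searched on both strands for the half-site AGGTCA or its variants (AGTTCA is a variant, GGGTCA is another and GGTTCA is the last) followed, in the same direction, by another of these after 1, 2 or 5 bases. A spacer of 5 was found in 31 of 35116 windows (0.0883%), of 2 in 14 (0.0399%) and of 1 in 46 (0.131%), while a single half-site was in 13548 (38.6%). Among the 79 windows of 56 of the genes that hold, none had a repeat and 26 had a half-site. Shown are the windows of CYP26B1 (chr2:72147813-72148112, minus strand), the gene with the largest change, and of RARB and CYP26A1 (chr3:25428013-25428312 and chr10:93073643-93073942, both plus strand), textbook retinoic acid targets whose windows were chosen for their repeats after the values were seen. The other 3 windows of RARB, among them that of its most upstream start, and the other window of CYP26A1 have no repeat. Capitals mark the direct repeat with a spacer of 5, which starts 53 bases before the start that defines this window in RARB, an alternative start inside the gene, and lies on the opposite strand 90 bases before that of the CYP26A1 window. A match is a description, not a site or a cause, and no match says only that these letters are not in this window.
RARB: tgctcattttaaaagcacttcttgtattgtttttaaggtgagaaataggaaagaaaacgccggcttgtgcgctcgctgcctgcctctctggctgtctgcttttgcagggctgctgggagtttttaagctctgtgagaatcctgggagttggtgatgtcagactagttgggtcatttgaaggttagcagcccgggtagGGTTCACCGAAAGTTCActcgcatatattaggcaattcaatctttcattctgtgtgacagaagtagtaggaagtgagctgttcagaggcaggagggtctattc
CYP26A1: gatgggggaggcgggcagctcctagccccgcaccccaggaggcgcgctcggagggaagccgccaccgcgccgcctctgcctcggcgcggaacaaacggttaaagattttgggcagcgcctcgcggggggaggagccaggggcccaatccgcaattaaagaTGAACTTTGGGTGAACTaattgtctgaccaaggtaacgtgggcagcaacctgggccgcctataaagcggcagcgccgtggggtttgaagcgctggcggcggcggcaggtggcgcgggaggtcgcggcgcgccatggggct
CYP26B1: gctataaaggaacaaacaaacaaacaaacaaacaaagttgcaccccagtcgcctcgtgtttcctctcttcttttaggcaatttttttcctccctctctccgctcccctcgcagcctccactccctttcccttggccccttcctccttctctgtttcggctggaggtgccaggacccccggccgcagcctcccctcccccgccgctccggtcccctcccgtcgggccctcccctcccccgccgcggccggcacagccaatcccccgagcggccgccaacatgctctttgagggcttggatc

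Of the 12 retinoid receptors and coregulators tested, NRIP1, a ligand-dependent co-repressor, was raised, and the median of the list was 0.35. Its level was 137, 139.6 and 127 CPM with ATRA, 85.5 and 90.1 CPM with vehicle, and 86.0 and 85.4 CPM without vehicle. RARB had 35.7, 28.8 and 22.2 CPM with ATRA, 13.8 and 11.3 CPM with vehicle, and 14.5 and 9.45 CPM without vehicle. Its groups did not overlap, but the log2 fold change of 1.24 did not pass the test with IA01 (edgeR adjusted p = 0.178) and passed it without (1.33, edgeR adjusted p = 0.00966). RARB overlaps TOP2B, which held 555% as many counts. The strand setting of the counting is not stated, so reads from bases shared with a gene on the other strand cannot be told apart. How much of RARB is shared with TOP2B was not measured.

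TNFAIP2, a cytoplasmic protein known to be induced by tumour necrosis factor and by retinoic acid, had the smallest p. It had 1036, 1042 and 1005 CPM with ATRA, 331 and 408 CPM with vehicle, and 438 and 389.9 CPM without vehicle. The ATRA libraries lay close together at 1027 ± 19.7 CPM (SD, n = 3) and the controls at 392 ± 45.1 CPM (SD, n = 4). The log2 fold change was 1.39 (standard error 0.10, edgeR adjusted p = 0.000999). ELF3, an epithelial ETS transcription factor, rose from 96.7 ± 17.6 CPM (SD, n = 4) to 276 ± 46.0 CPM (SD, n = 3), with a log2 fold change of 1.52 (standard error 0.16, edgeR adjusted p = 0.00535). TGM2, a transglutaminase that cross-links proteins and a long-known target, rose by 0.61 (standard error 0.10, edgeR adjusted p = 0.032). These are the 3 raised among 11 textbook targets tested, whose median was 0.61.

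Of 10 genes tested for cytochrome P450 and vitamin D, CYP24A1 and CYP2S1 were raised and the median of the list was 0.03, or 0.02 without IA01. CYP24A1, the hydroxylase that inactivates vitamin D, had 2026, 1633 and 1564 CPM with ATRA, 499 and 473 CPM with vehicle, and 635 and 710.4 CPM without vehicle. It rose 3.01-fold (log2 fold change 1.59, standard error 0.15, edgeR adjusted p = 0.00445). The receptor gene VDR had a log2 fold change of 0.13 (standard error 0.39, edgeR adjusted p = 0.962). CYP2S1, an epithelial P450 enzyme that can oxidise retinoic acid, had 292, 233 and 167 CPM with ATRA against 60.3 to 101 CPM in the controls (log2 fold change 1.57, standard error 0.22, edgeR adjusted p = 0.0134).

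**Figure D2:**
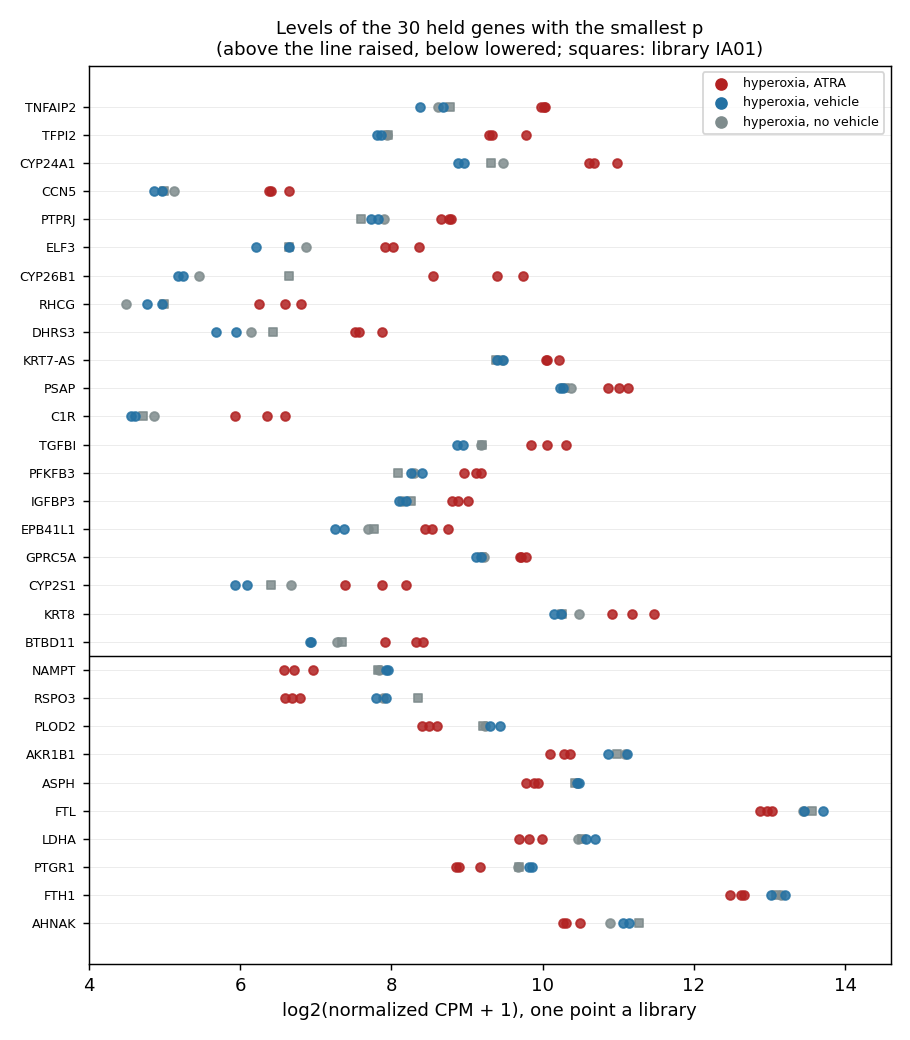
Levels of the 20 raised (above the line) and 10 lowered genes (below) with the smallest p among those that hold, as log2 of normalized CPM plus 1, each point 1 library and squares library IA01. The 3 ATRA libraries lie to 1 side of the 4 controls in each gene, which the choice of genes largely fixes. IA01 stands far from the other controls for CYP26B1.

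Some keratin genes were raised, 3 of 16 genes tested on the list for keratins and tight junctions. KRT8, a keratin of simple epithelia, had 2847, 2312 and 1926 CPM with ATRA, 1132 and 1209.6 CPM with vehicle, and 1218 and 1427 CPM without vehicle (log2 fold change 0.92, standard error 0.13, edgeR adjusted p = 0.0135). Its partner KRT18 rose by 0.87 (standard error 0.14, edgeR adjusted p = 0.0263) and KRT7 by 0.57 (standard error 0.09, edgeR adjusted p = 0.0281). KRT8 and KRT18 overlap each other in the annotation. KRT7-AS, a non-coding RNA opposite KRT7 that rose by 0.68 (standard error 0.08, edgeR adjusted p = 0.00593), held 0.316 to 0.421 times the counts of KRT7 in each library. Their reads cannot be told apart where the genes overlap. The median of the list was 0.51 and 13 of its genes were not called, and without IA01 6 were raised and 1, CLDN1, lowered. EPB41L1, which links the membrane to the actin cytoskeleton, rose by 1.05 (standard error 0.14, edgeR adjusted p = 0.0127), although LOC105372602, which overlaps it, held 15.2% as many counts.

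Among 26 adhesion, integrin and basement membrane genes tested, 3 were raised and 1 lowered, with a median of 0.20 (over all genes 0.333% were raised). Without IA01 9 were raised and 1 lowered, with a median of 0.31 (over all genes 1.89% were raised). CEACAM6, a cell surface adhesion molecule, had 139, 105 and 89.6 CPM with ATRA, 18.8 and 28.3 CPM with vehicle, and 7.64 and 23.5 CPM without vehicle, IA01 being the lowest. It rose 5.71-fold, a log2 fold change of 2.51 (standard error 0.36, edgeR adjusted p = 0.0145), and by 2.23 without IA01 (edgeR adjusted p = 2.42e-06). TGFBI, a secreted matrix protein, rose from 531 ± 60.0 CPM (SD, n = 4) to 1085 ± 177 CPM (SD, n = 3), and CCN5, a secreted matricellular protein, from 30.7 ± 2.40 CPM (SD, n = 4) to 88.8 ± 9.40 CPM (SD, n = 3).

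C1R, a protease that starts the classical complement cascade, had 95.9, 80.7 and 60.0 CPM with ATRA and 22.5 to 28.0 CPM in the controls (log2 fold change 1.67, standard error 0.20, edgeR adjusted p = 0.00752). C3, the central complement component, rose by 1.95 (standard error 0.29, edgeR adjusted p = 0.0201). They were the 2 raised of 12 complement genes tested, whose median was 0.58, and without IA01 C1S joined them and the median was 0.35. TFPI2, an inhibitor of serine proteases in the matrix, had 879, 646 and 628 CPM with ATRA, 232 and 224 CPM with vehicle, and 247 and 245 CPM without vehicle. It rose 3.03-fold (log2 fold change 1.60, standard error 0.12, edgeR adjusted p = 0.000999). IGFBP3, which binds insulin-like growth factors, had 514, 471 and 446 CPM with ATRA and between 273 and 306 CPM in the controls (log2 fold change 0.73, standard error 0.09, edgeR adjusted p = 0.00752). The IGF axis had 1 gene raised and 1 lowered, IGF2, of 13 tested with a median of 0.09, and 6 raised and 1 lowered without IA01 with a median of 0.30. A gene that overlaps IGF2 held 96.3% as many counts, so the value of IGF2 may not be its own.

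The other raised genes with the smallest p were on none of the lists chosen at the start. RHCG, an ammonium transporter of epithelia, had 110.4, 75.4 and 95.5 CPM with ATRA and 21.5 to 31.0 CPM in the controls (log2 fold change 1.78, standard error 0.20, edgeR adjusted p = 0.00535). PTPRJ, a receptor tyrosine phosphatase, rose by 0.97 (standard error 0.10, edgeR adjusted p = 0.00535). PSAP, the precursor of the lysosomal saposins, rose by 0.71 (standard error 0.08, edgeR adjusted p = 0.00593), and GPRC5A, an orphan receptor known as a retinoic acid-induced gene of lung epithelium, by 0.55 (standard error 0.07, edgeR adjusted p = 0.0131). PFKFB3, which makes the activator of phosphofructokinase, rose by 0.82 (standard error 0.10, edgeR adjusted p = 0.00752) and BTBD11 by 1.11 (standard error 0.15, edgeR adjusted p = 0.0135).

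Of the lowered genes, NAMPT and RSPO3 were among those with the smallest p. NAMPT, the rate-limiting enzyme of NAD salvage, had 104, 123 and 94.5 CPM with ATRA, 248 and 242 CPM with vehicle, and 225 and 227 CPM without vehicle. All 3 ATRA libraries were below all 4 controls, and the log2 fold change was -1.14 (standard error 0.12, edgeR adjusted p = 0.00535). KYNU, an enzyme of the kynurenine route that leads from tryptophan to NAD, went from 415 ± 59.2 CPM (SD, n = 4) down to 216 ± 23.0 CPM (SD, n = 3) (log2 fold change -0.94, standard error 0.13, edgeR adjusted p = 0.0142). NAMPT and KYNU were the 2 lowered of 10 NAD and kynurenine genes tested, with a median of 0.24, and without IA01 1 was raised and 2 lowered, with a median of 0.01.

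RSPO3, a secreted amplifier of Wnt signalling, had 95.9, 102 and 109.7 CPM with ATRA, 222 and 243 CPM with vehicle, and 325 and 237 CPM without vehicle, IA01 being the highest. It fell by 1.33 (standard error 0.15, edgeR adjusted p = 0.00535) and by 1.19 without IA01. WNT7B, a Wnt ligand of lung epithelium, rose in the same libraries, with 362, 272 and 254 CPM with ATRA and 115 to 186 CPM in the controls (log2 fold change 1.06, standard error 0.19, edgeR adjusted p = 0.0388). The remaining 34 of 36 Wnt genes tested were not called, and the median of the list was 0.29. Without IA01 2 were raised and 3 lowered, the latter including the Wnt inhibitor DKK1, and the median was 0.13.

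Signalling genes lowered with ATRA included NFKB2, a subunit of NF-kB, and EREG, a ligand of the EGF receptor. NFKB2 had 84.5, 114 and 139 CPM with ATRA and 222 to 246 CPM in the controls (log2 fold change -1.05, standard error 0.16, edgeR adjusted p = 0.0198). It was the 1 gene called of 22 NF-kB genes tested, with a median of -0.12, and without IA01 2 were raised and 3 lowered with a median of -0.22. EREG had 145, 141 and 227 CPM with ATRA and 344 to 389.7 CPM in the controls (log2 fold change -1.10, standard error 0.17, edgeR adjusted p = 0.0201), and was the 1 called of 8 EGFR ligands and receptors, with a median of -0.06. Without IA01 2 of the 8 were lowered, EREG and the receptor EGFR (log2 fold change -0.40, edgeR adjusted p = 0.0141), and the median was -0.16.

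FTL and FTH1, which encode the chains of the iron store ferritin, were lowered. FTL had 7529, 7985 and 8388 CPM with ATRA, 11271 and 13338 CPM with vehicle, and 12057 and 11150.0 CPM without vehicle (log2 fold change -0.59, standard error 0.08, edgeR adjusted p = 0.0105). FTH1 fell by 0.53 (standard error 0.07, edgeR adjusted p = 0.0121). Both have processed pseudogenes, as do LDHA and GAPDH, so that their counts are uncertain. LDHA, which turns pyruvate into lactate, went from 1514 ± 101 CPM (SD, n = 4) to 917 ± 98.2 CPM (SD, n = 3), and AKR1B1, an aldose reductase with close paralogs, from 2072 ± 169 CPM (SD, n = 4) to 1218 ± 109.8 CPM (SD, n = 3). PTGR1, which breaks down prostaglandins and leukotrienes, fell by 0.78 (standard error 0.10, edgeR adjusted p = 0.0113) and was the 1 called of 9 prostaglandin genes, with a median of -0.23. Without IA01 2 of the 9 were raised and 2 lowered, and the median was 0.01. PLOD2, which hydroxylates lysines of collagen, had 361, 337 and 389 CPM with ATRA and 590.0 to 691 CPM in the controls (log2 fold change -0.80, standard error 0.09, edgeR adjusted p = 0.00738). ASPH, another hydroxylase, fell by 0.58 (standard error 0.07, edgeR adjusted p = 0.00752) and AHNAK, a large scaffold protein, by 0.74 (standard error 0.10, edgeR adjusted p = 0.0131).

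The control sets gave different numbers of calls. Against the 2 vehicle libraries, with all 7 libraries in 1 fit, 60 of 14514 genes (0.413%) were called, and against the 2 libraries without vehicle 15 (0.103%). At an unadjusted p under 0.05 there were 829 and 1304 genes. The comparisons share the 3 ATRA libraries and are not independent. Of the 79 genes, 51 had an adjusted p under 0.05 against vehicle and 15 against no vehicle, a set that includes IA01. CYP24A1 differed by 1.84 from vehicle and by 1.37 from no vehicle on the log2 scale (edgeR adjusted p = 0.000804 and 0.00941). TNFAIP2 differed by 1.47 and 1.31 (edgeR adjusted p = 0.00176 and 0.00941), and RSPO3 by -1.19 and -1.46 (edgeR adjusted p = 0.017 and 0.0131).

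**Figure D3:**
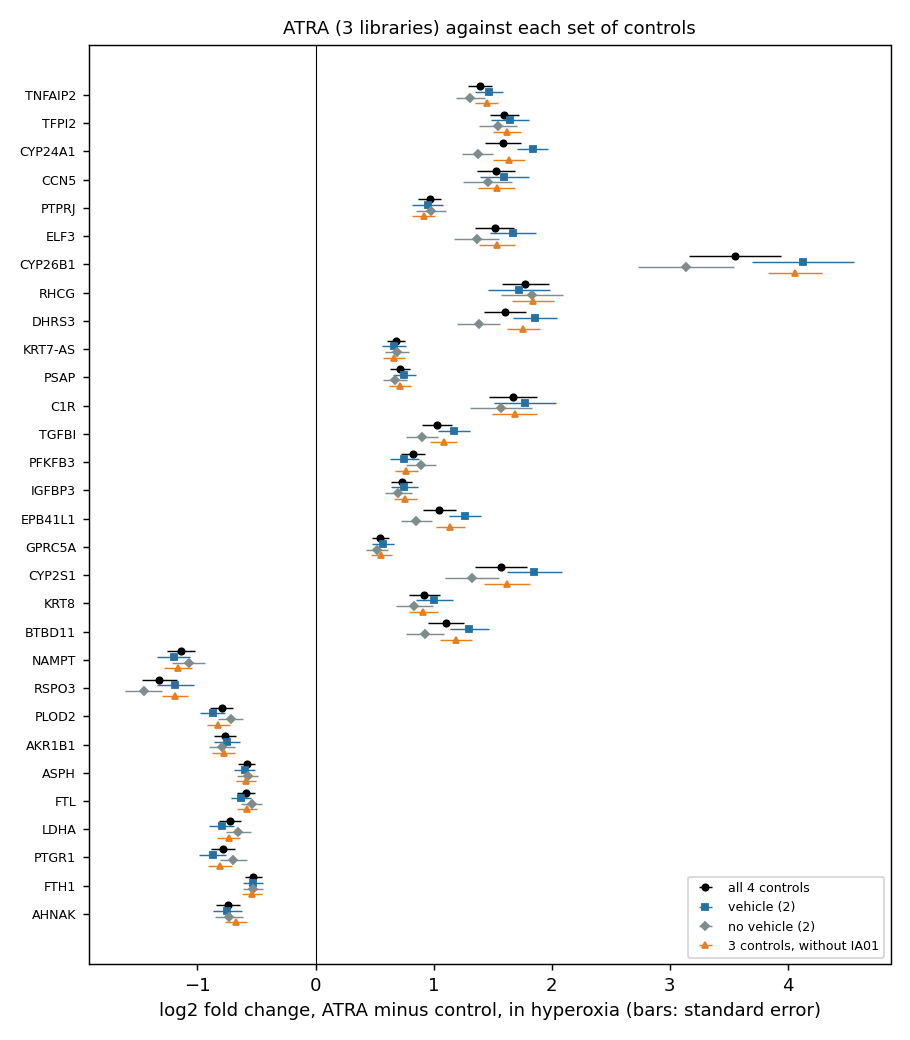
Log2 fold change of ATRA minus control in hyperoxia for the same 30 genes against all 4 controls, the 2 vehicle libraries, the 2 libraries without vehicle, and 3 controls without IA01; bars are standard errors. Each gene stays on its side of 0 in all 4, which the rule for holding requires, and CYP26B1 spans the widest range, from 3.13 to 4.13.

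Vehicle and no vehicle were compared directly in the same fit. Only RPS29, a ribosomal protein gene, was called (1 of 14514 genes, 0.00689%), while 524 genes had an unadjusted p under 0.05 and DESeq2 called 13. RPS29 had 1558 and 1111 CPM with vehicle, 282 and 260 CPM without, and 292, 272 and 259 CPM with ATRA, so that the libraries without vehicle lay beside those with ATRA (log2 fold change 2.30, standard error 0.17, edgeR adjusted p = 0.00149). RN7SL1 overlaps RPS29 and held 1.63 to 8.34 times its counts. The next genes by p were SCD, STRA6, LRP5 and PARP2, at log2 fold changes of -0.49, -0.89, -0.86 and -0.62 (edgeR adjusted p = 0.88 each). RPPH1 lies beside PARP2 and held 0.482 to 0.503 times its counts in each library, so the value of PARP2 may not be that gene's own. A p that misses the threshold does not show that the control sets were alike.

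Some lists had no called gene with IA01 included. Of 36 cell cycle genes tested, edgeR called 0, as did DESeq2, and 0 had an unadjusted p under 0.05, at a median log2 fold change of 0.06. Without IA01 edgeR again called 0 of the 36, with 2 at an unadjusted p under 0.05, and the median turned to -0.12. Of 30 p53 targets, edgeR called 0, DESeq2 5, and 11 had an unadjusted p under 0.05, at a median of -0.06. Over all genes tested, DESeq2 called 3.79% and 8.35% had an unadjusted p under 0.05. CDKN1A, the cell cycle inhibitor that p53 induces, had 969, 1050.1 and 1034 CPM with ATRA and between 998 and 1141 CPM in the controls (log2 fold change -0.06, standard error 0.08, edgeR adjusted p = 0.905). Without IA01 2 p53 targets, BTG2 and FDXR, were raised and GADD45A was lowered, and the median was 0.02. The 3 alveolar markers that could be tested had a median of -0.28. Of these, edgeR called 0, as did DESeq2, and 1 had an unadjusted p under 0.05.

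**Figure D4:**
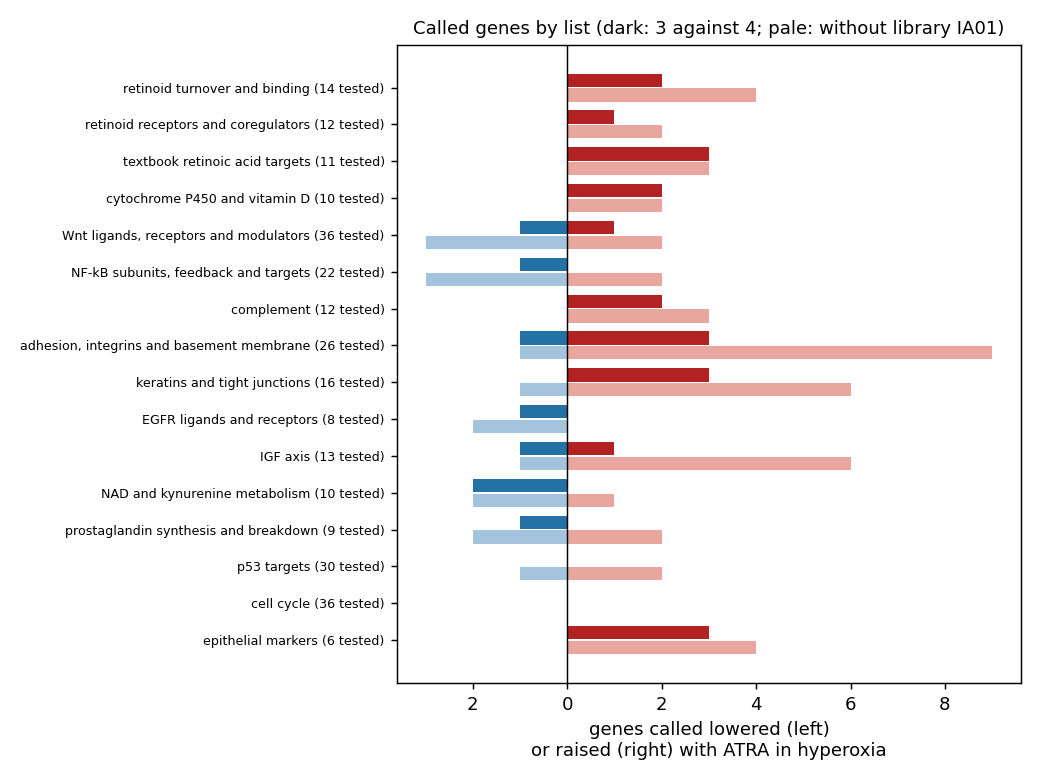
Number of called genes in each list with at least 6 genes tested, raised to the right and lowered to the left of 0, dark with all 4 controls and pale without IA01; the number tested is that with all 4 controls. More genes were called without IA01 in most lists, and none of the cell cycle list in either fit.

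The same dose was also given at 21% oxygen, where 3 ATRA libraries and 4 without share no sample with those in hyperoxia. In a fit of all 14 assigned libraries, 160 of 14720 genes (1.09%) were called for ATRA in normoxia, 113 raised and 47 lowered. Of the 79 genes that hold in hyperoxia, 48 were called in normoxia in the same direction, 33 of the 46 raised and 15 of the 33 lowered, and 73 had the same sign. The share of all genes tested with the same sign at both exposures was not computed, so the 73 has no background beside it. The difference between the responses was tested by an interaction term, which called 5 genes (0.034%), with 785 at an unadjusted p under 0.05. Of the 79 genes, 31 had an unadjusted p under 0.05 for this difference. The 79 were chosen by their values in hyperoxia, which enter the difference, so their choice may raise this count. IGFBP3 and TFPI2 rose with ATRA at both oxygen exposures. IGFBP3 rose by 0.72 in hyperoxia and by 2.37 in normoxia (difference -1.65, standard error 0.19, edgeR adjusted p = 0.00183), and TFPI2 by 1.58 and 2.51 (difference -0.93, standard error 0.16, edgeR adjusted p = 0.0409). With RLE factors in place of TMM the difference for TFPI2 missed the threshold (-0.91, edgeR adjusted p = 0.0579). Without ATRA, IGFBP3 stood at 271 to 302 CPM in hyperoxia and 65.1 to 95.9 CPM in normoxia, while with ATRA the ranges were 441 to 507 CPM and 331 to 474 CPM. PLOD2 had a log2 fold change of -0.81 in hyperoxia and 0.26 in normoxia (difference -1.07, standard error 0.15, edgeR adjusted p = 0.00546).

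The other 2 were not among the 79. FGD6, a protein with a FYVE domain, had 193 to 202 CPM with ATRA and 255 to 267 CPM without in hyperoxia, and 165 to 192 CPM with ATRA and 107 to 128 CPM without in normoxia. It thus fell by 0.41 in hyperoxia (edgeR adjusted p = 0.0447) and rose by 0.59 in normoxia (edgeR adjusted p = 0.00318) in that fit, a difference of -1.01 (standard error 0.14, edgeR adjusted p = 0.00546). CCND3, a D-type cyclin, had a log2 fold change of 0.38 in hyperoxia (edgeR adjusted p = 0.28) and of -0.91 in normoxia (edgeR adjusted p = 0.00363), a difference of 1.29 (standard error 0.21, edgeR adjusted p = 0.0409).

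**Figure D5:**
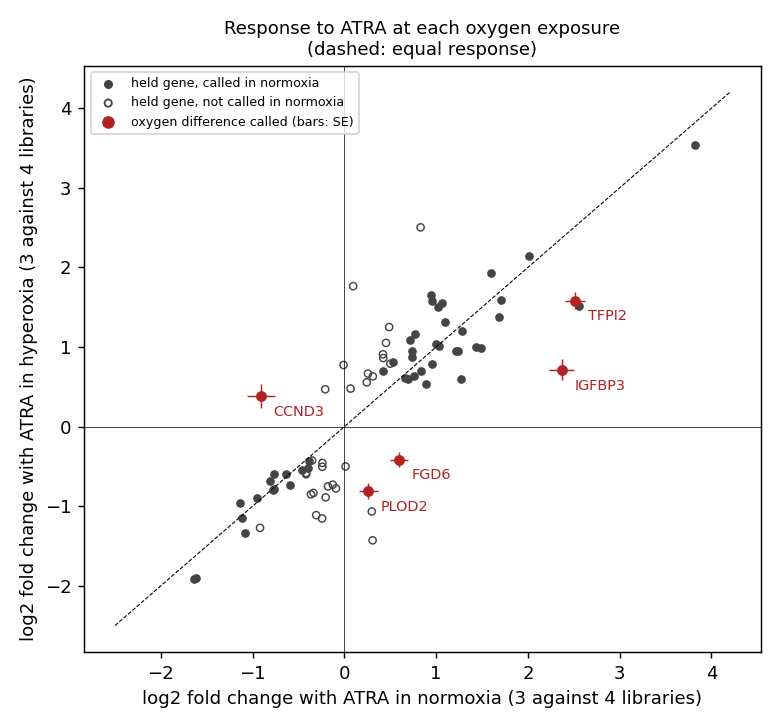
Log2 fold change with ATRA in hyperoxia against that in normoxia, from 1 fit of 14 libraries, for the 79 genes that hold (filled where called in normoxia) and, in red with standard errors, the 5 genes whose responses differed. Points on the dashed line respond equally; IGFBP3, TFPI2, PLOD2 and FGD6 lie below it and CCND3 above.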

How the data were processed

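The authors used Trimmomatic 0.38 to trim reads of stranded libraries, HISAT2 to place them on hg38, and HTSeq to obtain counts per gene. The deposited values are raw counts for 43388 gene symbols per library, whose annotation release and strand setting are not given in the sources used here. The 5 summary lines, 75.2% to 76.4% of each file's total, stayed out of library sizes. Counts of 7 libraries were filtered with filterByExpr (minimum count 10, minimum total 15), normalized by TMM and tested with edgeR 4.0.16 (glmQLFit, glmQLFTest, R 4.3.3), with Benjamini-Hochberg adjustment over all genes tested. The control sets were tested in a fit of 3 groups, and oxygen exposures in one of 14 libraries. Log2 CPM used a prior count of 2. Named are the 20 raised and 10 lowered genes with the smallest p among those that hold, the 5 with the smallest p between vehicle and no vehicle and for the oxygen difference, and examples from 20 gene lists. Another 2 lists, the windows of RARB and CYP26A1 and any further gene were chosen after values were seen. Members and lists were chosen with earlier results of these data known. Positions, promoters and overlaps came from RefSeq (GRCh38.p14), which matched all 79 genes, 1 of them by a synonym, and 14 of them overlap a gene with at least 10% as many counts. Alternatives were DESeq2 1.42.0, RLE factors, no filter, each library left out, a block of library sets, all 14 libraries, an equally weighted mean of the control sets and, after seeing the data, limma 3.58.1 with library weights, a robust spread and leaving out IA01 with IA02. Plots used matplotlib 3.10.9 in Python 3.11.15.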

Additional observations from a re-analysis of the deposited data

Results flagged for a closer look

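CYP26B1 in the 4 hyperoxia controls had 1 library far from the others. IA01 had 99.1 CPM and the other 3 had 35.3 to 42.7 CPM, so that the gap was 0.885 of the whole range. Of 30 genes checked this was the 1 found, and chance gives about 1 in 20 groups. The response to ATRA differed between hyperoxia and normoxia, by a test of the difference itself, for 5 genes. On the log2 scale the difference was -1.65 for IGFBP3, -1.01 for FGD6, -1.07 for PLOD2, 1.29 for CCND3 and -0.93 for TFPI2, with hyperoxia minus normoxia given. What sets the differences was not tested.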

How the results depend on the processing

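The number of genes called with ATRA against the pooled controls, 79, was 77 with RLE factors, 69 with a block of library sets inferred from the library numbers (of which the labels say nothing), 86 with an equally weighted mean of the control sets and, among choices made after seeing the data, 80 with a robust spread. It was 524 with DESeq2, 180 with no filter on low counts, 182 with all 14 libraries in the fit and, added after seeing the data, 397 with limma voom and library weights and 399 without IA01 and IA02. With each library left out in turn it ranged from 2 to 413. With the block, 61 of the 79 genes kept the call and 8 others gained it. All 79 kept their sign, and of those named in the text CEACAM6, NRIP1 and PRDX1 lost the call (adjusted p 0.0552, 0.0762 and 0.0626). The genes that hold numbered 344 with DESeq2, 179 with no filter, 180 with all 14 libraries, 346 without IA01 and IA02, 14 with an adjusted p against each control set, and 2 to 340 with each library left out. Without IA01, the 413 calls became 685 with no filter, while DESeq2 gave 540. These settings were not planned for the fit without IA01. Calls against vehicle went from 60 to 369 with DESeq2 and 215 with no filter, and those against no vehicle from 15 to 327 and 304. For vehicle against no vehicle they went from 1 to 13 and 19, and for the difference between oxygen exposures from 5 to 46 and 32, and to 4 with RLE factors, where TFPI2 lost the call (edgeR adjusted p = 0.0579). The causes were not tested. Of 480 values for the 30 named genes that hold (16 settings each), 418 kept sign and call, 62 lost the call with the sign kept, and 0 changed sign. Part of this was fixed by the choice of genes. A call without IA01 is part of the rule for holding. With no overlap between ATRA and control, leaving out a library can hardly turn a sign. The lost calls came without IA02 (28), IA05 (23), IA06 (4) and IA12 (7). For the 5 genes with the smallest p between vehicle and no vehicle, 10 of 15 values stayed and 5 gained a call, and for the oxygen difference 14 of 15 stayed and TFPI2 lost it with RLE factors. Of 304 list medians 54 moved by more than the spread between libraries. No paired analysis was possible because the labels link no ATRA library to a control library, and the block rests on the library numbers alone. Depth limits what can be said of genes near 3 counts, and with 3 against 4 libraries, of which 1 had no count for many low genes, a gene that was not called cannot be taken as unchanged.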

Other observations

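Lists for glycolysis and for targets of the stress-response factor NRF2 were written after the values were seen, so their counts are a description only. Of 18 glycolysis genes tested, 4 were lowered with ATRA in hyperoxia (PKM, LDHA, ENO1 and GAPDH; 0.239% of all genes tested were lowered) and 1 raised, PFKFB3, which is a regulator and not an enzyme of the pathway itself. The median log2 fold change of the list was -0.26, against 0.02 over all genes tested. PKM had 3802, 3739 and 3762 CPM with ATRA, and 4862 to 5086 CPM in the controls (log2 fold change -0.41, standard error 0.06, edgeR adjusted p = 0.0134). Without IA01, 6 were lowered and 1 raised (of all genes 1.15% and 1.89%).

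Of 26 NRF2 targets tested, 5 were lowered (FTL, FTH1, PRDX1, AKR1B10 and PTGR1), and the median of the list was -0.34. In all, 22 had a log2 fold change below 0 and 19 an unadjusted p under 0.05, against 47.9% and 8.35% of all genes tested. Without IA01, 9 were lowered. In normoxia, whose libraries are others, 8 were lowered (0.319% of all genes were) and the median was also -0.34. PRDX1 overlaps MMACHC, which held 61.5% as many counts, and AKR1B10 shares sequence with its paralogs, so their counts are uncertain.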
